A study of Mus musculus with 224 samples.

Results

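The liver and the soleus muscle of the same mice were compared in 35 animals kept on regular chow (RC), which gave 1 liver library and 1 soleus library each, 70 libraries in all. The comparison covered 11554 genes whose Ensembl identifier had a row in both expression tables, of 12611 genes in the liver table and 13637 in the soleus table; 1057 genes were listed for liver only and 2083 for soleus only. The tissues were matched by the animal number that their titles share. The labels name no allele or agent in any animal. Of the animals 11 were C57Bl/6J, 12 DBA/2J and 12 BALB/cJ, all inbred strains. The day labels put 12 animals at day 5, 12 at day 13 and 11 at day 33 (the design text of the series names day 13 where the labels have day 33). Animal 1RC210 was left out by the rule that chose the pairs from 36 RC animals. The labels used here give no age, sex or hour of sampling, and the whole tissue was taken as RNA, so that in these bulk samples fewer cells of a type and less RNA per cell cannot be told apart.

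Hepatocytes make most of the proteins of blood plasma, clear ammonia through the urea cycle, synthesise bile acids and export glucose and ketone bodies. The soleus is a postural muscle of the hind limb made mainly of slow and fast oxidative fibres, whose sarcomeres contract on calcium released from the sarcoplasmic reticulum and which burn fatty acids, ketone bodies and glucose in abundant mitochondria. Both tissues answer to insulin, to glucocorticoids and to the circadian clock, a feedback loop in which CLOCK or NPAS2 pairs with BMAL1 (the product of Arntl) and is held back by the PER and CRY proteins.

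Levels below are log2 CPM, from reads recovered out of the deposited values and scaled to a common library size over all 70 libraries together. A difference is liver minus soleus within an animal on that log2 scale, so that 1 is a 2-fold difference and a positive value means higher in liver. The libraries held 19500288 to 29444812 reads in liver (median 24568172) and 22418685 to 33370016 in soleus (median 26667938). A gene was called when limma's test against a 2-fold threshold gave a Benjamini-Hochberg adjusted p under 0.05 over all 11554 genes. Pearson's r across genes had a median of 0.95 between liver libraries, 0.95 between soleus libraries and 0.40 between the liver and the soleus of an animal (range 0.29 to 0.65); these are descriptions across genes, which are not independent replicates.

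The markers of the labelled tissue were high in every library, and a trace of the other tissue's genes was present and differed widely among libraries. The 10 hepatocyte markers (Alb, Apoa1, Apob, Ttr, Serpina1c, Fgb, Cps1, Tat, Hnf4a and Cyp2e1) made up 10.4% to 14.9% of the reads of the liver libraries (median 12.5%), against 0.000932% to 0.887% of the soleus libraries (median 0.0139%). The 10 muscle markers (Acta1, Ckm, Mb, Myh7, Tnnt1, Tnnc1, Ttn, Ryr1, Actn2 and Des) made up 0.000393% to 0.04997% of the reads of the liver libraries (median 0.00202%), against 7.45% to 10.9% of the soleus libraries (median 8.76%). Hepatocyte markers reached 0.1% or more in 9 soleus libraries, with the highest shares in 1RC226 (0.887%) and 2RC200 (0.646%), and stayed under 0.01% in 14. The liver of 2RC200 also held the highest share of muscle markers (0.04997%). Alb, which encodes serum albumin, ranged in the soleus libraries over −1.61, 5.38 and 12.3 log2 CPM (lowest, median and highest), or 7 to 131710 reads, while in the liver libraries it was 15.9, 16.4 and 16.9. Its difference ran between 4.48 and 17.6 in single animals, with a median of 11.1. The part of these shares in the mean differences was not tested. The median difference of the 10 hepatocyte markers was 10.81 over all 35 pairs and 14.45 in the 14 animals with the lowest hepatocyte shares in soleus. For Fga, Cyp3a11, Myh7 and some gene lists below, the value in these 14 is given beside that over all 35. The 14 were picked by hepatocyte reads in soleus and not by muscle reads in liver, and they held no BALB/cJ animal of day 33.

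**Figure D1:**
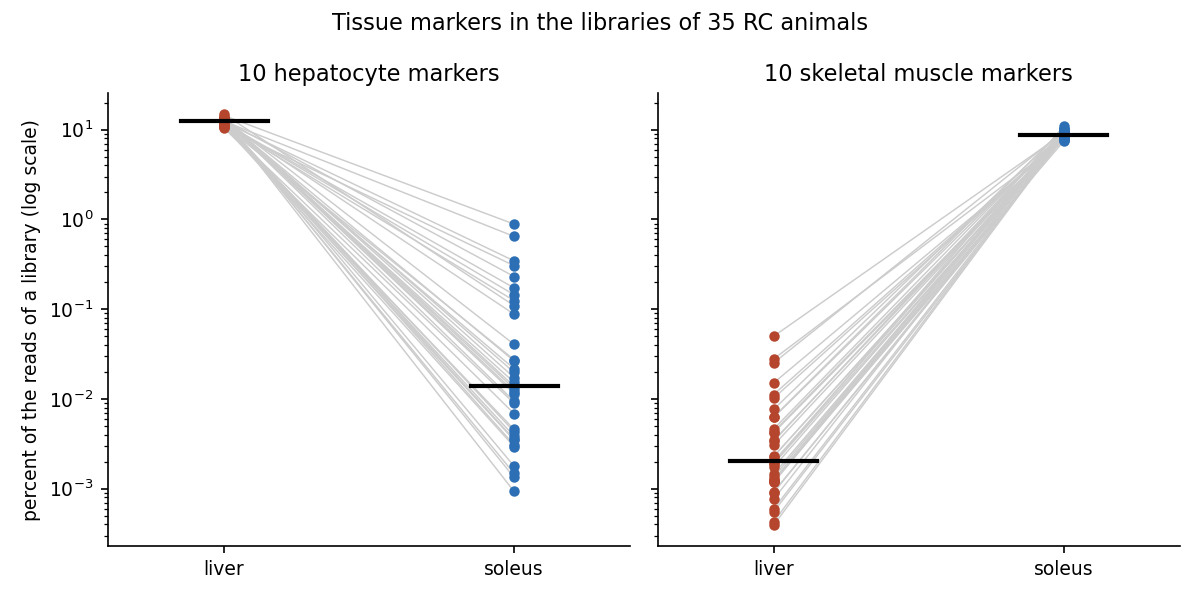
Share of a library's reads taken by 10 hepatocyte markers (left panel) and 10 skeletal muscle markers (right panel), in percent on a log axis, for the liver and the soleus of 35 RC animals. Grey lines join the tissues of an animal and black bars are medians. The hepatocyte share of the soleus libraries spreads from 0.000932% to 0.887%, under the 10.4% of the lowest liver library.

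Nearly every gene differed between the tissues to some degree. At an adjusted p under 0.05 against no difference, 10770 of the 11554 genes (93.25%) differed, and the median over all genes was 0.03. Against the 2-fold threshold, 2625 genes were higher in liver (22.7% of those tested) and 2409 were higher in soleus (20.8%). The 95% interval of the difference lay within 2-fold for 5668 genes (49.1%). Within C57Bl/6J the counts were 2451 higher in liver (21.2%) and 2223 higher in soleus (19.2%), within DBA/2J 2574 (22.3%) and 2263 (19.6%), and within BALB/cJ 2511 (21.7%) and 2283 (19.8%). Of the 5613 genes called in at least 1 strain, 3947 were called in all 3 with the same direction, 2112 higher in liver and 1835 higher in soleus. Other ways of scaling the libraries moved the median difference by −0.19 to −0.24, so that differences near the threshold are relative to the scaling used.

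The 12 genes named for the largest differences toward liver, 1 per symbol stem (the letters before the first digit), encode proteins that the liver secretes into plasma or uses to clear drugs and ammonia. They were Cyp3a11 (a drug-metabolising cytochrome P450), Pzp and Mug1 (protease inhibitors of the alpha-2-macroglobulin family), Fga and Fgb (fibrinogen chains), Alb and Cps1 (the entry enzyme of the urea cycle). The others were Serpina3k (a serine protease inhibitor), Gc (the vitamin D carrier), Apob (the core protein of very low density lipoprotein), Ahsg (fetuin A) and Ces1c (a secreted carboxylesterase). Fga was at 11.7, 12.3 and 12.8 log2 CPM in the liver libraries (lowest, median and highest), against −3.71, 1.34 and 7.78 in the soleus libraries. No soleus library reached the lowest liver library. The mean difference of Fga was 11.43 ± 0.59 (SE, n = 35 animals; adjusted p = 1.45e-16), and in the 14 animals with the least hepatocyte reads in soleus it was 14.9. Cyp3a11 averaged 12.33 ± 0.46 in liver and 0.85 ± 3.67 in soleus (SD, n = 35 each), a difference of 11.53 ± 0.56 (SE; adjusted p = 3.49e-17) that was 14.8 in those 14 animals. The other 10 differed by 10.97 to 11.45, and the sign was positive in all 35 animals for each. Cyp3a11, Mug1, Serpina3k and Ces1c have close paralogs, so reads may have been shared with these.

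Gene lists of liver functions lay almost wholly on the liver side. All 21 plasma carrier and transport proteins in both tables were called higher in liver, with a median difference of 10.18 against 0.03 over all genes, from Cp (ceruloplasmin, the copper carrier) at 5.36 ± 0.09 (SE) to Fga. All 21 measured genes of coagulation and fibrinolysis were called (median 9.67); the smallest difference was Pros1 (protein S) at 1.63 ± 0.05. Of 18 complement genes 17 were called (median 8.21), with C8a and C4bp at 10.35 ± 0.49 and 10.19 ± 0.44. C5ar1, the receptor for the C5a fragment, was at −0.17 ± 0.61 in liver and 0.52 ± 0.62 log2 CPM in soleus (SD). Of 17 lipoprotein genes 16 were called (median 8.97), and Pltp, the phospholipid transfer protein, was the exception at 5.03 ± 0.99 in liver and 4.85 ± 0.36 in soleus. All 19 cytochromes P450 of families 1 to 3 were called (median 9.95), as were all 18 conjugation enzymes (median 4.79) and all 8 urea cycle genes (median 8.62). In the 14 animals with the lowest hepatocyte share in soleus, the list medians were 13.1 for plasma carriers, 12.7 for cytochromes P450 and 9.83 for the urea cycle.

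Bile acid, amino acid, sterol and glucose metabolism followed, with a few members that departed from their list. Of 17 genes of bile acid synthesis and transport 16 were called higher in liver (median 8.71), led by the uptake carriers Slco1b2 (10.33 ± 0.50) and Slc10a1 (10.18 ± 0.46). Abcb4, the phosphatidylcholine flippase of the canalicular membrane, was at 7.28, 8.10 and 8.65 log2 CPM in liver (lowest, median and highest) and 7.01, 7.26 and 7.45 in soleus. Its levels overlapped between the tissues and its difference of 0.79 ± 0.04, although positive in all 35 animals, did not pass the 2-fold test. Of 29 genes of amino acid catabolism 28 were called higher in liver (median 8.75), with Mat1a (methionine adenosyltransferase of hepatocytes) at 10.93 ± 0.54 and Tat (tyrosine aminotransferase) at 10.82 ± 0.51. Got1, the cytosolic aspartate aminotransferase, was called higher in soleus (−1.17 ± 0.08, adjusted p = 0.0465). The branched chain list was split, and 7 of 19 genes were called higher in liver, among them Bckdhb and Dbt, subunits of the branched chain ketoacid dehydrogenase (1.68 ± 0.03 and 1.28 ± 0.03). Called higher in soleus were 3, including the mitochondrial aminotransferase Bcat2 (−2.21 ± 0.05) and Bckdk, the kinase that inactivates the dehydrogenase (−3.51 ± 0.04). Of 22 genes of cholesterol synthesis and uptake 19 were called higher in liver (median 3.83; Tm7sf2, a sterol reductase, 5.46 ± 0.11). The secretory pathway had 19 of 28 genes called higher in liver (median 1.82; Pdia4, a disulfide isomerase, 3.72 ± 0.05). Fatty acid synthesis had 13 of 15 called higher in liver (median 3.34; Elovl2 9.78 ± 0.44, Fads2 7.06 ± 0.17), while Acacb (−1.42 ± 0.10) and Pnpla3 (−1.57 ± 0.18) were called higher in soleus.

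Of 15 genes listed for gluconeogenesis and glucose output 12 were called higher in liver (median 6.50), and Ppargc1a was called higher in soleus. The list also held Pklr at 10.09, a pyruvate kinase and so an enzyme of glycolysis. Among genes of ketone body use, Oxct1, the transferase that activates acetoacetate for oxidation and that hepatocytes are known to lack, was at 0.61, 1.82 and 3.56 log2 CPM in liver (lowest, median and highest), against 9.29, 9.65 and 10.04 in soleus. The tissues did not overlap, and the difference was −7.93 ± 0.09 (adjusted p = 3.78e-33). Bdh1 and Acat1, which act in both directions, were within 2-fold at 0.28 ± 0.06 and 0.12 ± 0.04.

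The 12 genes named for the largest differences toward soleus by the same rule build and run the contractile apparatus. They were Myh7 (slow myosin heavy chain), Mybpc1 (slow myosin binding protein C), Actn2 (alpha-actinin of the Z disc), Acta1 (skeletal actin), Atp2a1 (the fast calcium pump of the sarcoplasmic reticulum) and Cmya5 (myospryn). They went on with Xirp2 (an actin-binding protein of the sarcomere), Myot (myotilin), Nrap, Ryr1 (the calcium release channel), Myl3 (slow myosin light chain) and Ckmt2 (mitochondrial creatine kinase of sarcomeric muscle). Myh7 was at −3.71, −0.93 and 3.61 log2 CPM in the liver libraries (lowest, median and highest), against 12.01, 13.01 and 13.72 in the soleus libraries. No liver library reached the lowest soleus library. Its difference was −13.57 ± 0.38 (SE, n = 35; adjusted p = 1.11e-23), and −14.2 in the 14 animals with the lowest hepatocyte share in soleus. Acta1 was the most abundant of these, with 2.33 ± 2.59 in liver and 14.84 ± 0.16 in soleus (SD), a difference of −12.56 ± 0.39. The other 10 differed by −12.77 to −12.02, negative in all 35 animals.

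The promoters of Acta1 and Myh7 are printed for the motif CATTCC or its complement GGAATG, called MCAT, which TEAD factors are known to bind in muscle genes, and for the muscle E-box CAGCTG of the MyoD family. The windows cover 250 bases before and 50 after the RefSeq start (build GRCm38.p6), both on the minus strand, and capitals mark both motifs, searched on both strands.
Acta1, minus strand, chr8:123894726-123895025: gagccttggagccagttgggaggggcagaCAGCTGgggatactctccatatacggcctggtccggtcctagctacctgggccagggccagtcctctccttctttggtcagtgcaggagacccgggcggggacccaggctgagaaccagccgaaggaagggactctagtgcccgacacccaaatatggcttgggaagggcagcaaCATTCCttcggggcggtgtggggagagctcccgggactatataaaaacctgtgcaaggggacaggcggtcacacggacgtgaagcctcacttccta
Myh7, minus strand, chr14:54994577-54994876: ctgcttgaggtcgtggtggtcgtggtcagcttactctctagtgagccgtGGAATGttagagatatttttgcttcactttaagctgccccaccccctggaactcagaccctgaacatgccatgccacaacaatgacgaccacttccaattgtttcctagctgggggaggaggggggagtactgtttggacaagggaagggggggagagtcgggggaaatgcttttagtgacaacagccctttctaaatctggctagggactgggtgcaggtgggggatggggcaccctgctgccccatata
MCAT stood 46 bases before the start of Acta1 and near the upstream end of the window of Myh7, and the muscle E-box 221 bases before the start of Acta1. The muscle E-box was in 30.5% of the 154 windows of the 200 genes with the largest differences toward soleus, in 11.04% of the 163 windows of the 200 toward liver, in 14.6% of the windows of all genes in both tables and in 16.1% of all windows. MCAT was in 23.4%, 18.4%, 11.9% and 14.6% of the same 4 sets. These are shares of letters in windows, and the sets were drawn from the measured differences.

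Every measured contractile gene of both fibre types was called higher in soleus. This held for 12 of 12 slow fibre genes (median −10.45), 15 of 15 fast fibre genes (median −10.58) and 20 of 20 genes of the sarcomere scaffold and Z disc (median −11.39). It also held for 7 of 7 of calcium release and excitation (median −9.92) and 8 of 8 of creatine, oxygen and ADP handling (median −10.93). The slow list ran from Atp2a2, the calcium pump that other cells also use (−4.76 ± 0.05), and Csrp3 (−4.33 ± 0.12) to Myl3 and Myh7. The fast list ran from Tpm1 (−7.29 ± 0.07) and Pvalb, the calcium buffer parvalbumin (−8.31 ± 0.30), to Myh1 and Myh2 (−12.67 ± 0.35 and −13.25 ± 0.36). Of 10 genes of the dystrophin complex and membrane repair 9 were called higher in soleus (median −3.98), with Sspn (sarcospan) at −7.27 ± 0.10 and Sgcb (beta-sarcoglycan) at −6.14 ± 0.08.

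Per length of exon, the myosin heavy chains of oxidative fibres were the highest in the soleus libraries. Myh2, the chain of fast oxidative fibres, was at 1109, 1774 and 2073 CPM per kilobase (lowest, median and highest of the 35 soleus libraries). Myh7 of slow fibres was at 488, 1063 and 1741, and Myh1 of intermediate fast fibres at 322, 908 and 1485. Myh4, the chain of fast glycolytic fibres, was lower and uneven, at 8.73, 90.3 and 574. Myh6, a near-identical neighbour of Myh7 whose reads may be shared with it, was at 2.07, 187 and 393. The highest Myh4 level was in 3RC211, whose soleus library also had the highest share of nerve and Schwann cell markers (0.0690% of reads, against a median of 0.0165%); the part of these cells was not tested. The top genes per length outside the mitochondrial genome were Acta1 (20800 ± 2247 CPM per kilobase), Mb (6243 ± 740) and Tnnt3 (4454 ± 768) in soleus, and Alb (33660 ± 4307) and Apoa2 (11430 ± 1450) in liver.

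Genes of energy production in mitochondria were higher in soleus, by far smaller amounts than the contractile genes. Of 21 genes of the tricarboxylic acid cycle 15 were called higher in soleus (median −1.60), led by Idh3a (−3.83 ± 0.04) and Pdha1 (−3.20 ± 0.03), and Suclg2, the GTP-linked subunit of succinyl-CoA ligase, was called higher in liver (1.29 ± 0.03). Of 36 subunits of respiratory complex I 19 were called higher in soleus and none higher in liver (median −1.17, range −2.06 to −0.15). The counts were 8 of 14 for complexes II and III (median −1.17), 3 of 7 for the shared isoforms of complex IV (median −1.06) and 9 of 16 for ATP synthase (median −1.14). These medians lie close to the 2-fold threshold, so these counts depend on where it is set. The 7 mitochondrially encoded genes with rows in both tables were all called higher in soleus (−1.84 to −1.37), and mitochondrially encoded genes took 4.91% ± 0.81 of reads in liver and 16.1% ± 2.96 in soleus (SD, n = 35). The mitochondrial ribosome was near equal, with 2 of 26 genes called higher in soleus and a median of −0.17.

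Mitochondrial fatty acid oxidation had calls in both directions. Of its 18 genes in both tables, 3 were called higher in liver and 3 higher in soleus (median −0.15), shares under the 22.7% and 20.8% over all genes. Cpt1a, the liver form of the carnitine palmitoyltransferase that controls entry, differed by 4.61 ± 0.07, and Acaa2, the thiolase, by 1.45 ± 0.03. Acadl, the long-chain dehydrogenase, and Hadha and Hadhb, the subunits of the trifunctional protein, differed by −1.76 ± 0.04, −1.11 ± 0.03 and −2.23 ± 0.03. Peroxisomal oxidation lay on the liver side, with 15 of 18 genes called higher in liver (median 2.41; Hao1 9.64 ± 0.43), and Abcd2, a fatty acid importer of peroxisomes, called higher in soleus (−2.17 ± 0.13).

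**Figure D2:**
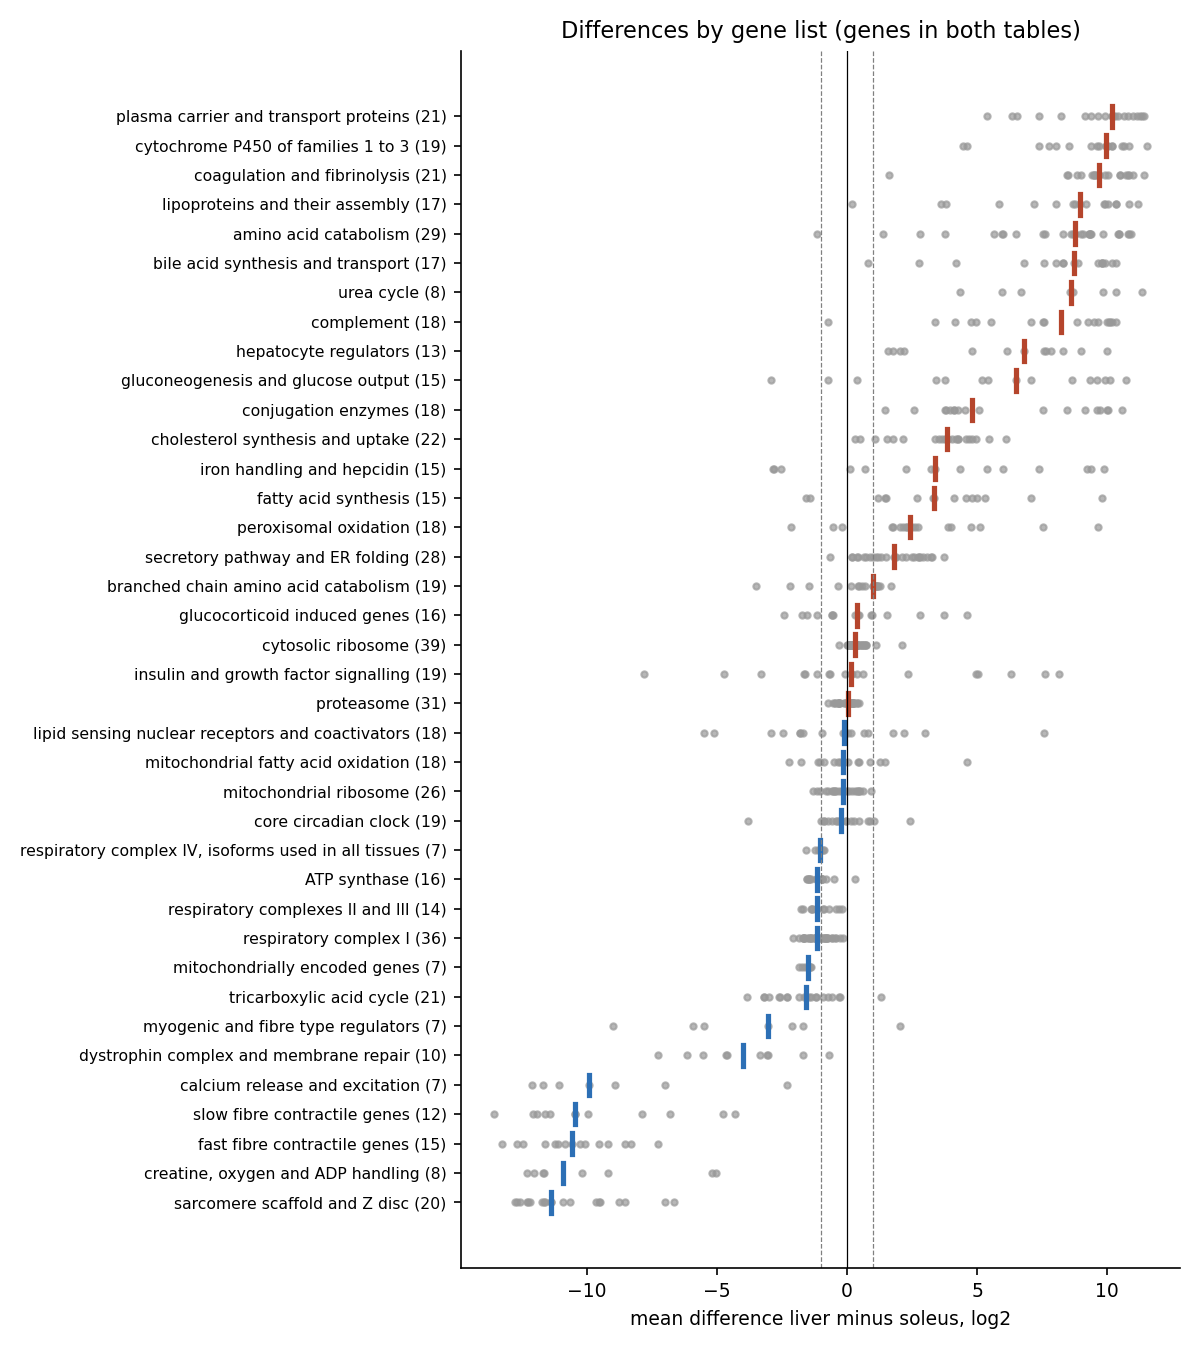
Mean difference of each gene (grey points; liver minus soleus, log2) in lists of genes with rows in both tables, with the list's median as a coloured bar (red above 0, blue under 0), the number of genes in brackets and dashed lines at 2-fold. Plasma carrier proteins have the highest median (10.18) and the sarcomere scaffold the lowest (−11.39), with the proteasome at 0.04.

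Genes of the basic machinery of the cell lay mostly within 2-fold. None of the 31 proteasome genes was called, and their differences ran from −0.75 to 0.45. Of 39 genes of the cytosolic ribosome 2 were called higher in liver, Rpl3 (2.10 ± 0.05) and Rps16 (1.11 ± 0.05), and the median was 0.29. Rpl3, a protein of the large ribosomal subunit for which muscle is known to use the paralog Rpl3l, was at 7.497, 7.72 and 8.31 log2 CPM in liver (lowest, median and highest) and 5.12, 5.65 and 6.05 in soleus, without overlap. Among well expressed genes within 2-fold, those with the least spread of the difference over animals were Vapb (−0.81 ± 0.02; SE), Yme1l1 (0.52 ± 0.02), Ctdsp1 (0.38 ± 0.02) and Serbp1 (−0.82 ± 0.02), each with an SD over the 35 animals of 0.11 to 0.12.

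In most isozyme pairs, where a step has a gene taken as the liver member and another taken as the muscle member, the tissues used opposite members. Of 32 pairs listed, 24 had both genes in both tables. In 17 of these, the first gene was called higher in liver and the second higher in soleus, and the exchange (the first gene's difference minus the second's) was positive in every animal for 23 of 24. For glucose transport, Slc2a2 (GLUT2) was at 8.84 ± 0.27 in liver and −0.52 in soleus, and Slc2a4 (GLUT4, the insulin-responsive carrier) at 0.16 in liver and 9.07 in soleus; the differences were 9.35 ± 0.37 and −8.92 ± 0.17. Pygl against Pygm (glycogen phosphorylases) differed by 5.96 ± 0.16 and −10.26 ± 0.17, and Pklr against Pkm (pyruvate kinases) by 10.09 ± 0.38 and −6.90 ± 0.09. Fabp1 against Fabp3, which carry fatty acids in the cytosol, made the largest exchange at 20.6 ± 4.8 (SD over animals), of which 10.01 ± 0.63 (SE) came from Fabp1 and −10.62 ± 0.27 from Fabp3.

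In the other 7 pairs at most 1 gene was called in its paired direction. Among the subunits of cytochrome oxidase, where 2 of 3 pairs had both genes called, Cox6a2 was at −3.71, −1.46 and 2.62 log2 CPM in liver (lowest, median and highest) against 9.03, 9.69 and 10.1 in soleus, while Cox6a1 differed by 3.15 ± 0.05. Cox7a1 differed by −7.33 ± 0.11, whereas its partner Cox7a2 did not pass the 2-fold test (−0.08 ± 0.05). Ldhb, the lactate dehydrogenase subunit of oxidative tissue, differed by −8.81 ± 0.10, while Ldha was within 2-fold (−0.19 ± 0.03). Mat1a was higher in liver by 10.93 ± 0.54, whereas Mat2a did not pass the 2-fold test (−0.78 ± 0.03). The pairs that departed were the bifunctional enzymes of fructose 2,6-bisphosphate, with Pfkfb1 taken as the liver and Pfkfb3 as the muscle member. Pfkfb3 was called higher in liver (1.68 ± 0.17) and Pfkfb1 was not called (0.50 ± 0.08; 5.64 in liver and 5.13 in soleus). Whether these genes are a liver and muscle pair was not tested. Also apart were the calcium pumps Atp2b1 and Atp2a2, which were both called higher in soleus (−1.51 ± 0.04 and −4.76 ± 0.05). Pdk1 and Ppargc1b, taken as the liver members of their pairs, were at −0.93 ± 0.05 and −0.98 ± 0.10 and were not called. Pdk4, the kinase that shuts pyruvate dehydrogenase in fasting, differed by −7.82 ± 0.22 and Ppargc1a, the coactivator of mitochondrial genes, by −2.92 ± 0.11.

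**Figure D3:**
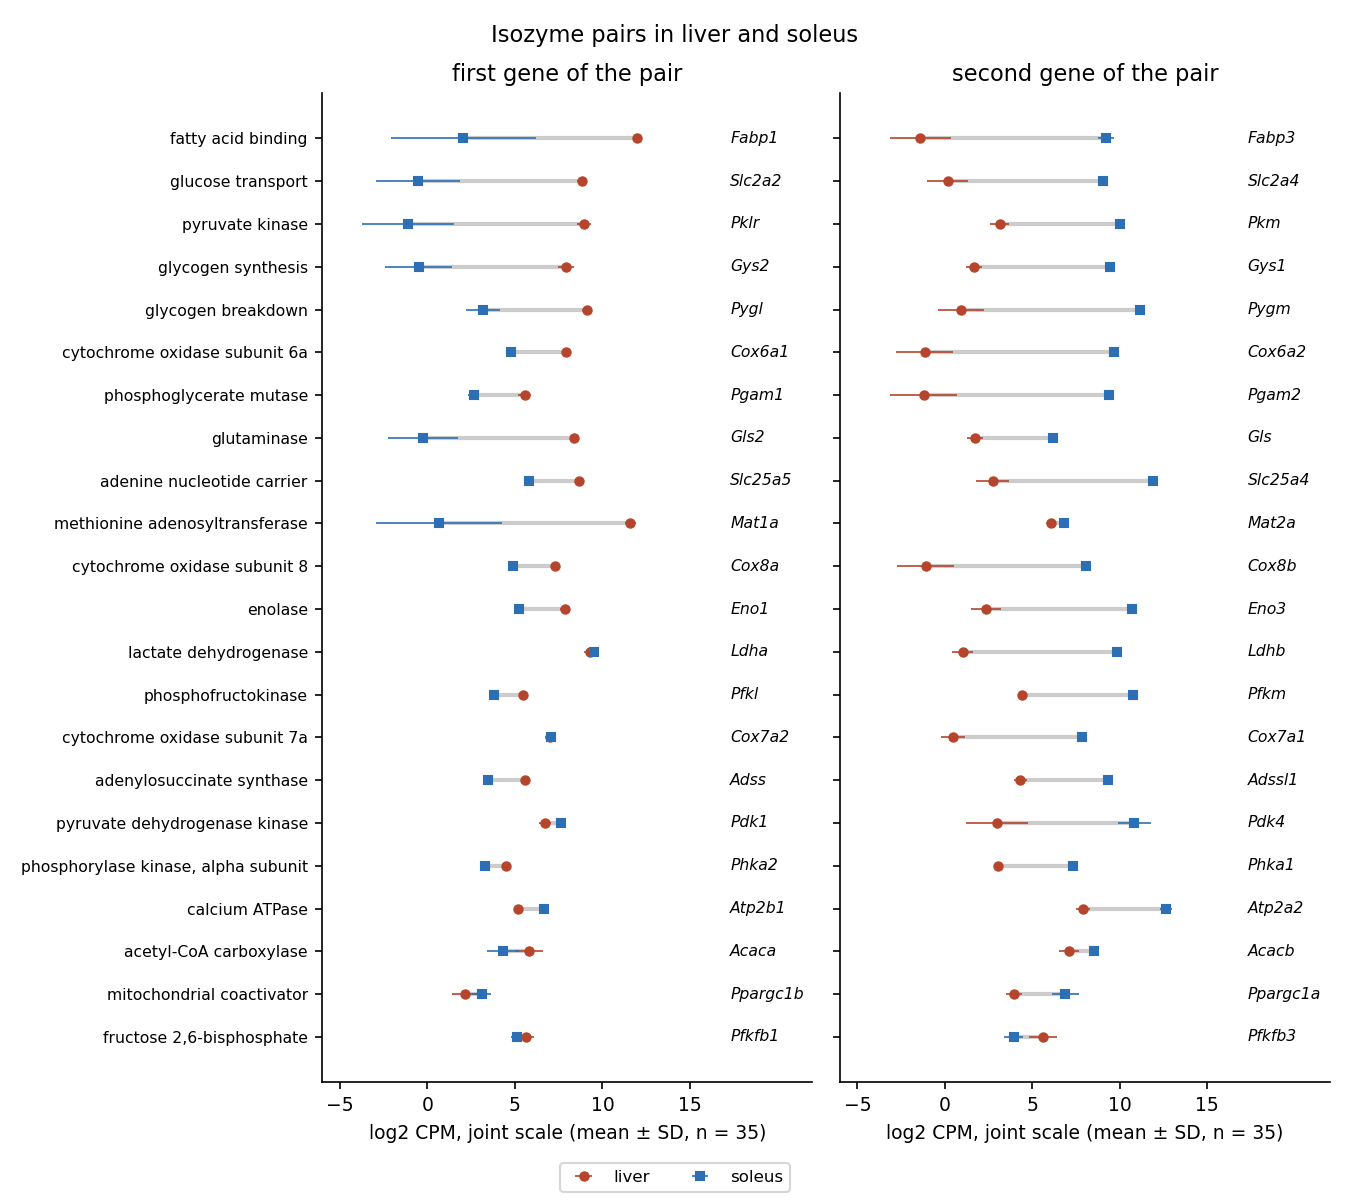
Levels of most of the isozyme pairs with both genes in both tables, in liver (red circles) and soleus (blue squares) as mean ± SD of log2 CPM over 35 animals, with the first gene of each pair on the left and the second on the right. Pairs are ordered by the size of the exchange, from Fabp1 and Fabp3 at the top (20.6) to Pfkfb1 and Pfkfb3 at the bottom (−1.16), the only pair with a negative mean.

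Regulators of tissue identity were split between the tables. All 13 hepatocyte regulators with rows in both tables were called higher in liver (median 6.81), from Cebpb (1.56 ± 0.08) and Ppara (1.78 ± 0.11) to Creb3l3 (8.995 ± 0.40) and Hnf4a (9.98 ± 0.45). A further 7 were listed for liver only, among them Foxa3 (5.96 ± 0.44 log2 CPM as deposited; SD, n = 35). Of 18 myogenic and fibre type regulators 11 were listed for soleus only, including Myod1 (2.92 ± 0.63 as deposited) and Myf6 (5.85 ± 0.35). Of the others, 6 were called higher in soleus, led by Mef2c (−8.997 ± 0.09) and Tead1 (−5.92 ± 0.05), and Prox1, a factor of both hepatocytes and slow fibres, was called higher in liver (2.02 ± 0.08). Of 23 regulators of limb and body axis, 14 were listed for soleus only, for example Hoxc10 (5.62 ± 0.14) and Lbx1 (5.54 ± 0.26). Of the 3 in both tables Meis2 was called higher in liver (2.13). Likewise, 9 of the 11 genes of the neuromuscular junction were listed for soleus only, for example Chrna1, the receptor's alpha subunit (5.74 ± 0.58). A gene with no row in a table has no level here.

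The highest genes listed for liver only were Sec14l4 (7.56 ± 0.65 log2 CPM as deposited), Ugt1a1, Cyp7a1 (which starts the classic route to bile acids), F11 (coagulation factor XI), Timd2, Lect2, Apol7a and Sdr9c7, at 6.49 to 7.17 for those after the first. Cyp7a1 varied most among them, over 3.37, 7.002 and 8.71 (lowest, median and highest of the 35 liver libraries). Those listed for soleus only were Txlnb (9.68 ± 0.18), Hrc (a calcium-binding protein of the sarcoplasmic reticulum), Alpk3, Usp13, Xirp1, Myo18b, Perm1 and Coro6, at 9.14 to 9.65 for those after the first. Xirp1 had the widest spread, over 8.10, 9.32 and 10.6.

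Nuclear receptors that sense lipids and their coactivators gave 4 of 18 called higher in liver, led by the bile acid receptor Nr1h4 (7.56), and 7 higher in soleus, led by Esrrg (−5.51). Insulin and growth factor signalling gave 6 of 19 each way, with Igfbp1 (8.16), an insulin-like growth factor binding protein, and Pdk4 at the ends. Over all genes 22.7% were called higher in liver and 20.8% higher in soleus, and the 4 of 18 is close to the first share. Whether these lists and the small ones below depart from such shares was not tested. Iron handling and cells other than the main ones also differed. Of 15 iron genes 10 were called higher in liver, with Tmprss6 (9.87 ± 0.40) and Tfr2 (9.37 ± 0.40), which act on hepcidin control, at the top. Hfe2 (hemojuvelin, −2.82 ± 0.06) and Bmp6 (−2.85 ± 0.05) were among the 3 called higher in soleus. Of the endothelial markers, 9 of 10 were called higher in soleus (median −2.26; Flt1 −4.13 ± 0.06), and Stab2, the scavenger receptor of sinusoidal endothelium, was called higher in liver (1.78 ± 0.06). Of the markers of stellate cells and fibroblasts, 8 of 9 were called higher in soleus, among them Col1a1 (−5.59 ± 0.17) and Des, which muscle fibres also express, and Reln, a marker of stellate cells, was called higher in liver (2.40 ± 0.08). Of 8 macrophage markers 3 were called higher in liver, led by Clec4f of Kupffer cells (7.55 ± 0.33), and all 7 adipocyte markers were called higher in soleus (Lipe −1.35 ± 0.09 to Cfd −5.40 ± 0.40). The shares of reads ranged over 0.00590% to 0.0157% in liver and 0.0372% to 0.0751% in soleus for endothelium, 0.0120% to 0.0467% and 0.461% to 0.912% for stellate cells and fibroblasts, and 0.00172% to 0.0335% and 0.0304% to 0.106% for adipocytes. Des made up most of the median share in soleus of the stellate cell and fibroblast list, and without it the share was 0.0117% to 0.0443% in liver and 0.0385% to 0.489% in soleus. Of the remaining lists, 3 of 4 nerve, 1 of 2 tendon, 1 of 4 bile duct and 1 of 7 red cell markers were called higher in soleus. Called higher in liver were 1 of 4 bile duct (Spp1), 1 of 7 red cell (Alas2, 4.60 ± 0.06), 1 of 3 lymphocyte and the 1 pancreatic marker in both tables.

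The difference between the tissues itself differed between strains for 1291 genes (11.2% of those tested; limma's F test with a range of at least 1 between the strain means). The trace of hepatocyte markers in soleus was uneven between strains, with a median of 0.0198% and a highest share of 0.887% in the C57Bl/6J animals, 0.0289% and 0.646% in the DBA/2J animals, and 0.0118% and 0.0274% in the BALB/cJ animals. The count was 1350 in the 26 animals under 0.1% and 980 in the 14 under 0.01%, which lack BALB/cJ animals of day 33. Genes of hepatocytes with such traces were among the 1291, for example Nr1i3 (range 3.64), Hamp (3.16) and Creb3l3 (2.59), and the part of the trace in these ranges was not tested. The wider strain range was in liver for 878 of these genes and in soleus for 413, with median ranges of 1.12 in liver and 0.68 in soleus, against 0.32 and 0.27 over all genes. Of the 8 genes named by the smallest p, Serpina3c, a serine protease inhibitor in a cluster of close paralogs, had the widest range. The C57Bl/6J animals had −0.93 to 2.52 log2 CPM in liver and 1.09 to 4.31 in soleus. The DBA/2J animals had 8.29 to 9.48 in liver and 1.51 to 3.38 in soleus, and the BALB/cJ animals had 8.70 to 9.45 in liver and 1.68 to 3.19 in soleus. The liver libraries of C57Bl/6J did not overlap those of the other strains, and the strain means of the difference spanned 8.06 (adjusted p = 6.18e-19).

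The other strain genes differed in how far each tissue varied between strains. Parp3, an ADP-ribosyltransferase of DNA repair, was higher in the soleus of C57Bl/6J (6.23 ± 0.09) than in that of DBA/2J (4.98 ± 0.10) and BALB/cJ (5.10 ± 0.14; SD), without overlap. In liver Parp3 went the other way, with means of 4.515, 5.156 and 4.974 in the same order, so both tissues entered the difference. Its differences in the same order were −1.72 ± 0.25, 0.18 ± 0.17 and −0.12 ± 0.24 (SD, n = 11, 12 and 12). Sae1, a subunit of the enzyme that activates SUMO, was higher in both tissues of DBA/2J, at 6.46 ± 0.07 in liver and 5.19 ± 0.09 in soleus, against 4.34 to 4.41 in the means of both tissues of the other strains. Its difference was 1.27 ± 0.10 in DBA/2J. Capn3, the calpain of muscle, differed by −5.91 ± 0.34 in the C57Bl/6J, −3.60 ± 0.43 in the DBA/2J and −4.49 ± 0.35 in the BALB/cJ animals, with liver means of 1.35, 3.73 and 2.503 and soleus means of 7.26, 7.33 and 6.995. Fam20b, Habp4, Aldh16a1 and Cep85 had C57Bl/6J apart from the other strains in liver, with ranges of 1.32, 1.25, 1.49 and 1.75.

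**Figure D4:**
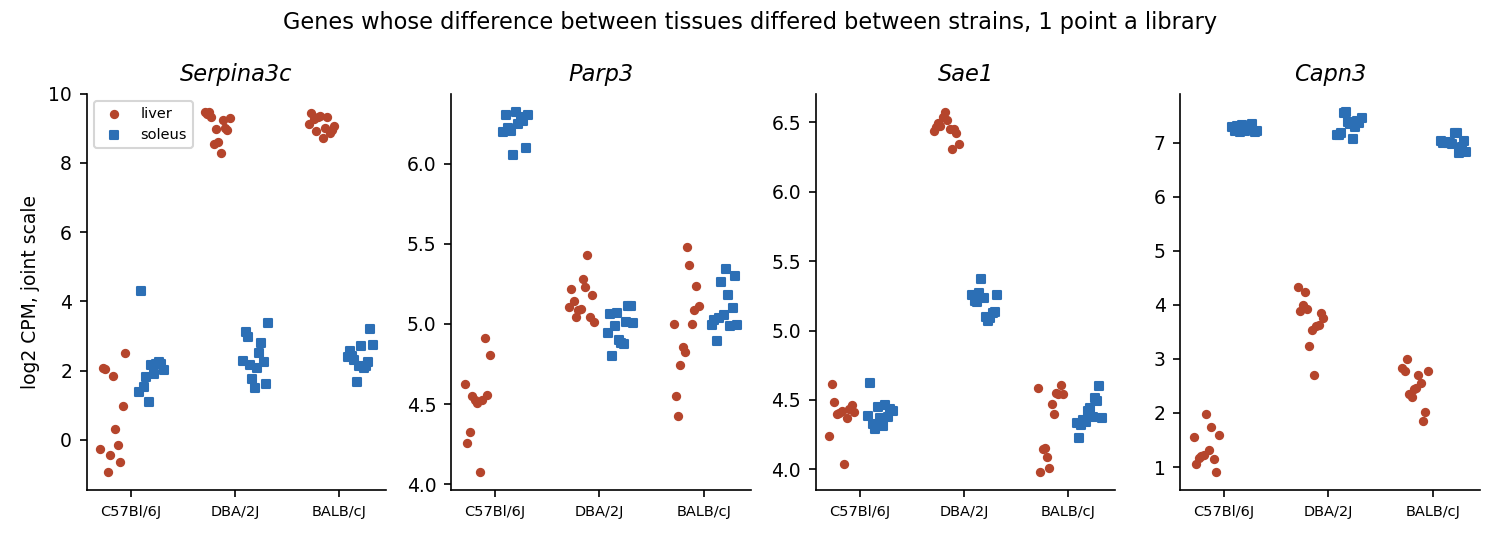
Levels (log2 CPM) of Serpina3c, Parp3, Sae1 and Capn3 in each liver library (red circles) and soleus library (blue squares) by strain, 1 point a library, with 11, 12 and 12 animals. Serpina3c is at most 2.52 in the C57Bl/6J livers and at least 8.29 in the other livers; each panel has its own vertical scale.

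For 15 genes the call went in opposite directions in 2 strains. Among these, 3 were chosen after their values were seen. Dach2, a transcriptional cofactor of muscle, differed by −7.44 in C57Bl/6J and −6.71 in DBA/2J but by 2.46 in BALB/cJ (adjusted p = 9.01e-27, 3.67e-26 and 6.84e-12). In BALB/cJ it was at 1.77 ± 0.48 in liver and −0.69 ± 0.42 in soleus, against −3.60 ± 0.23 and −3.54 ± 0.31 in the livers and 3.80 ± 0.31 and 3.17 ± 0.39 in the soleus samples of C57Bl/6J and DBA/2J (SD). Crym, a thyroid hormone binding protein, differed by −2.01 in the C57Bl/6J, 2.69 in the DBA/2J and 1.33 in the BALB/cJ animals, with liver means of −0.47, 4.17 and 3.14 and soleus means of 1.60, 1.49 and 1.81. Ntrk2, the receptor of the neurotrophin BDNF, differed by −2.02 in C57Bl/6J and 4.82 in DBA/2J, with liver means of 1.10 and 7.10 and soleus means of 3.24 and 2.28; BALB/cJ was at −0.84 and was not called (adjusted p = 1.00).

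The day of sampling made less difference, with 47 genes (0.407%) past the same rule; there were 31 without animal 2RC202 and 72 without 3RC251. Col5a3, a collagen chain, differed by 0.13 ± 0.49 at day 5, 0.92 ± 0.45 at day 13 and 1.43 ± 0.69 at day 33 (SD, n = 12, 12 and 11; adjusted p = 0.00158). It had liver means of 4.91, 5.76 and 5.36 and soleus means of 4.79, 4.84 and 3.93. Jph1, which joins the cell membrane to the sarcoplasmic reticulum, differed by −7.58 ± 0.61, −7.05 ± 0.83 and −6.36 ± 0.51 at days 5, 13 and 33 (adjusted p = 0.00317), with liver means of 0.18, 0.68 and 1.45. Serpine2 and Rsrp1 had ranges of 1.56 and 1.03 (adjusted p = 0.00360 and 0.00362). The levels of the days overlapped in both tissues for all 4 genes. In the 14 animals with the lowest hepatocyte share in soleus none of the 4 was past the rule. These 14 held fewer animals per day and no BALB/cJ animal of day 33, so the days differed in strain. The part of the trace in this loss was not tested.

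Across animals, the liver level and the soleus level of a gene could vary together once the mean of each strain and day was removed. This held for 45 genes at an adjusted p under 0.05, all with a positive r (0.389% of the 11554), and the median r over all genes was 0.04. The count was 27 without animal 3RC259 and 15 by Spearman's rho. Of the 19 core clock genes 10 were among the 45, and the median r of that list was 0.72. The 8 genes named by smallest p were Dbp, Nr1d2, Irf2bp2, Pim3, Nfil3, Foxo1, Per3 and Coq10b, of which Dbp (a transcription factor driven directly by the clock), Nr1d2 (REV-ERB beta, which represses Arntl), Nfil3 (which competes with DBP for the same sites) and Per3 belong to the clock.

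Dbp was at 0.43, 6.55 and 8.11 log2 CPM in the liver libraries (lowest, median and highest), and at 3.15, 6.31 and 7.35 in the soleus libraries. Animals with high Dbp in liver for their strain and day had high Dbp in soleus, with r = 0.90 (n = 35, adjusted p = 3.23e-06 over 11554 genes; permutation p = 2e-05 over 100000 shuffles within strain and day, two-sided). Spearman's rho was 0.87 (permutation p = 1e-05, the smallest these shuffles can give). Animals of near numbers could deviate alike. In BALB/cJ at day 13, liver Dbp was 6.56 in 3RC228 and 7.53 in 3RC230, but 1.41 in 3RC252 and 0.79 in 3RC255. At day 5 of BALB/cJ, 3RC251 at 4.46 lay beside 3RC202 at 4.45. The correlation p-values, here and for the other genes, take animals as independent, and the shuffles cross the number ranges. A part shared by animals of near numbers was not tested. Without the 2 animals farthest from the median in liver r was 0.84. By strain r was 0.85 in the C57Bl/6J animals, 0.65 in the DBA/2J animals and 0.98 in the BALB/cJ animals. It was 0.86, 0.87 and 0.90 within the lower, middle and upper range of animal numbers (n = 15, 11 and 9). The deviations in a range were still taken from means of strain and day, most of which mix ranges. These values therefore cannot separate a part shared by a number range. The DBA/2J animals varied least, with an SD of the deviation of 0.16 in liver, against 1.80 in C57Bl/6J and 1.85 in BALB/cJ. In DBA/2J the animals of a day had numbers from the same range, whereas in the other strains each day mixed ranges. For the spread and the r within a strain, strain and this mixing cannot be told apart. In the 14 animals with the lowest hepatocyte share in soleus r was 0.95, although there, with 5 degrees of freedom, no gene passed the adjusted threshold. In the 36 animals on high fat diet (HFD), none of which entered the choice of the 45 genes, r was 0.87.

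The other clock genes among the 45 had r of 0.88 for Nr1d2, 0.80 for Npas2, 0.79 for Nfil3, 0.78 for Per3, 0.77 for Nr1d1, Tef and Bhlhe41, 0.76 for Arntl and 0.72 for Ciart. Spearman's rho ran from 0.65 to 0.88 over the 10 genes, Dbp included, permutation p from 1e-05 to 0.00198 over both measures, and r without the 2 animals farthest from the liver median from 0.65 to 0.85. Within strains, r of these 9 genes other than Dbp was lowest in the DBA/2J animals for 7, and there it ran from 0.22 (Bhlhe41) to 0.87 (Arntl), and it was 0.60 (Nfil3) to 0.90 (Nr1d2) in C57Bl/6J and 0.53 (Ciart) to 0.94 (Nr1d1) in BALB/cJ. In the lower range of animal numbers r was 0.16 for Bhlhe41, 0.38 for Npas2 and 0.44 for Nfil3. Arntl, whose product starts the loop, was at −1.07, 2.49 and 5.25 in liver (lowest, median and highest) and 1.25, 3.48 and 5.59 in soleus, and its r was 0.73, 0.87 and 0.75 within C57Bl/6J, DBA/2J and BALB/cJ. The 9 clock genes that did not pass had r of 0.29 (Rora) to 0.62 (Per2, adjusted p = 0.0902). On HFD, 16 of the 19 clock genes passed, with a median r of 0.77. In level, Hlf was the only clock gene called higher in liver (2.42 ± 0.05) and Bhlhe41 the only 1 called higher in soleus (−3.81 ± 0.14). The interval lay within 2-fold for 11 of the 19, and the median difference of the list was −0.23. The difference itself differed between strains for 9 of the 19, against 11.2% over all genes. For Dbp it was 0.79 in DBA/2J and −1.18 in BALB/cJ.

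Genes induced by glucocorticoids gave 5 of 16 past the threshold, with a median r of 0.39. These were Cdkn1a (0.74), Fkbp5 (0.68), Cebpd (0.67), Tsc22d3 (0.67) and Ddit4 (0.66), with adjusted p of 0.00523 to 0.0462, rho of 0.57 to 0.67, permutation p of 0.00029 to 0.00265 and r of 0.46 to 0.67 without the 2 farthest animals. Fkbp5, a co-chaperone of the receptor, was at 4.77, 6.43 and 8.93 in liver and 3.74, 5.41 and 7.45 in soleus. Its r was 0.94 in BALB/cJ, 0.46 in DBA/2J and −0.20 in C57Bl/6J. It was 0.49 without the 2 animals farthest from the liver median, 3RC259 and 3RC251. Irf2bp2, a corepressor, had r = 0.81 (permutation p = 0.00014; rho 0.65), and 0.95 in BALB/cJ, 0.31 in DBA/2J and 0.39 in C57Bl/6J. Foxo1, the factor that insulin signalling holds out of the nucleus, had r = 0.79 (permutation p = 0.00244; rho 0.70), and 0.94, 0.37 and 0.02 in the same 3 strains. Without the 2 farthest animals r was 0.72 for Irf2bp2 and 0.66 for Foxo1, and the differences between strains were not tested. Pim3 (a kinase, r = 0.79, rho 0.73) and Coq10b (a coenzyme Q binding protein, r = 0.78, rho 0.75) had permutation p of 0.00013 and 2e-05. Without the 2 animals farthest for each gene, their r was 0.66 and 0.78. In the lower range of animal numbers r was 0.50 for Pim3, 0.46 for Irf2bp2, 0.40 for Cebpd and 0.74 for Coq10b. In the upper range it was 0.90, 0.88, 0.90 and 0.76. Fkbp5 had 0.36 in the middle and 0.88 in the upper range. Of the 45 genes, 40 had a positive r on HFD and 21 passed there, where 78 genes passed in all.

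**Figure D5:**
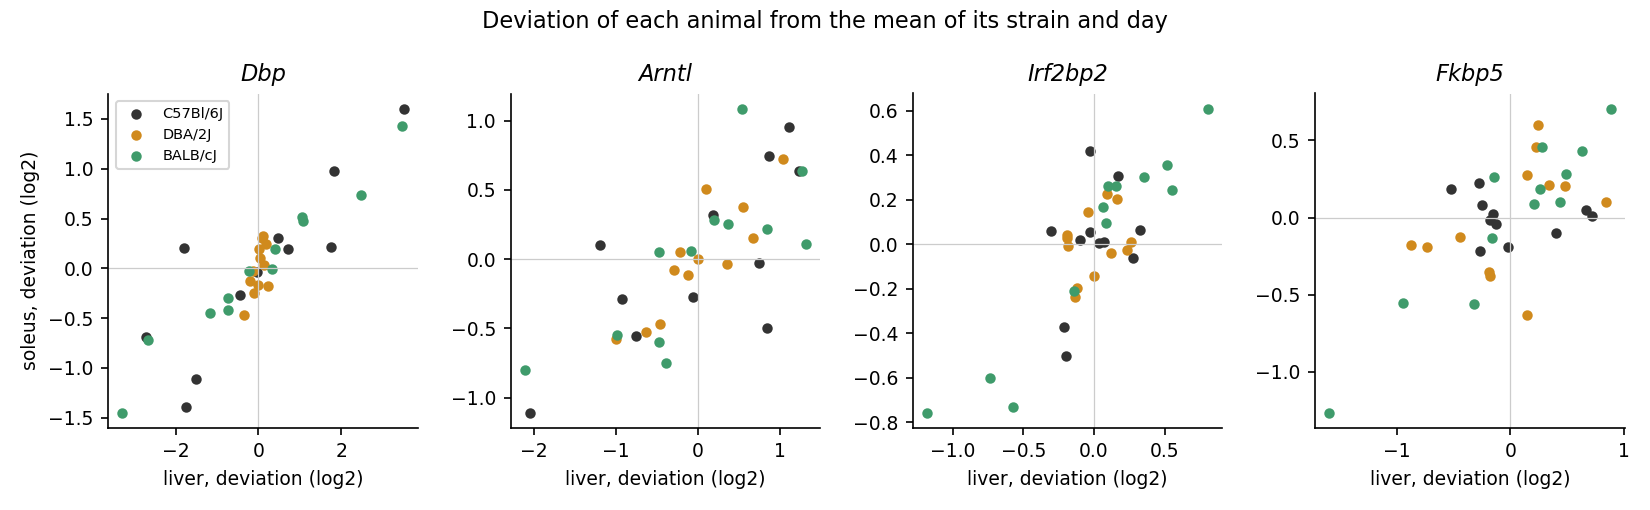
Deviation of each animal from the mean of its strain and day in liver (horizontal) and soleus (vertical), in log2 units, for Dbp, Arntl, Irf2bp2 and Fkbp5 in 35 animals coloured by strain. The r values are 0.90, 0.76, 0.81 and 0.68; for Irf2bp2 and Fkbp5 the BALB/cJ animals span most of the range, and each panel has its own scales.

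The promoters of Per3 and Ciart are printed as clock genes of the 45 that carry known clock motifs, the D-box TTATGTAA (bound by DBP, TEF, HLF and NFIL3) and the E-box CACGTG (bound by CLOCK with BMAL1). Both genes were chosen after the correlations were seen, and the windows of Dbp, Nr1d2 and Nr1d1 held neither motif, which says only that these letters are not in them. Capitals mark both motifs, searched on both strands, on the minus strand of GRCm38.p6.
Per3, minus strand, chr4:151044616-151044915: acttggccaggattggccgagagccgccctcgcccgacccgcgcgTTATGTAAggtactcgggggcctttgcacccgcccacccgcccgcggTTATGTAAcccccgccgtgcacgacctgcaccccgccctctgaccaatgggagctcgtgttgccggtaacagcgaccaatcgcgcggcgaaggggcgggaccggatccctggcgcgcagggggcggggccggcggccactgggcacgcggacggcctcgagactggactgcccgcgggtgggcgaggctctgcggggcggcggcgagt
Ciart, minus strand, chr3:95882179-95882478: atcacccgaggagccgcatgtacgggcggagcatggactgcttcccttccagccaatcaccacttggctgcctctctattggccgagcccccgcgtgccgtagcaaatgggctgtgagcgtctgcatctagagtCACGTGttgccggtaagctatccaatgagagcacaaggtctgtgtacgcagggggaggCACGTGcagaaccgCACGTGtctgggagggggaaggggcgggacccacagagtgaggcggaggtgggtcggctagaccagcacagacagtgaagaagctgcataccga
The D-boxes stood 205 and 158 bases before the start of Per3, and the E-boxes 116, 58 and 44 bases before that of Ciart. The E-box was in 7 of 38 windows (18.4%) of the 45 genes, in 10.6% of the windows of all genes in both tables and in 7.24% of all windows, and the D-box in 2 of 38 (5.26%), 0.478% and 0.955%.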

How the data were processed

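RNA-seq was made by the authors from total RNA of both tissues with a stranded mRNA kit and single reads of 1 length, per the labels' protocols; STAR 2.5.3a, edgeR and build GRCm38 are named in the submitters' processing notes, without settings. Values in the deposited tables are log2 CPM per the submitters' processing notes and the values themselves, 1 table per tissue with 72 libraries each, normalized separately by the authors. Titles in the header line, which lacks a name for the gene column, were assigned with that shift. In both tables the values under 2000 reads gave whole reads in 100% of cases (tolerance 0.05 reads), with a prior of 0.25 reads in the liver table and 2 in the soleus table, so reads were recovered and the 70 libraries scaled together by the median ratio over 11120 genes above 0 in all of them, with a prior of 2 reads. Levels of genes listed for 1 tissue are as deposited and were not compared between tables.

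The liver minus soleus difference of each animal was fitted with limma 3.58.1 in R 4.3.3, with a variance trend and the 9 means of strain and day (26 residual degrees of freedom), each mean weighted equally. Because the same animal number stands in both titles, the pairing comes from the animals and is part of the fit. Calls used limma's test against a log2 difference of 1, adjusted over 11554 genes. Strain and day were tested with limma's F test, and correlations with Pearson's r after removal of the 9 means (25 degrees of freedom). Permutation tests used 100000 shuffles within strain and day. The fits were tested on simulated data. Python 3.11.15 was used for the rest. The named genes were the 12 highest and 12 lowest differences among called genes at or above the median level with 1 sign in all animals (1 per symbol stem, the letters before the first digit), the smallest p-values for strain (8), day (4) and correlation (8), the 4 steadiest genes within 2-fold, the 8 highest genes of 1 table each, all isozyme pairs, and in each list the extremes. The genes, lists and pairs were chosen with earlier results of these data known. The labels name animals and no litters or cages, and the remaining liver libraries, adipose tissue and, except for a repeat of the correlations, HFD animals were not used. Some members of the lists and pairs are counted but not reported here by name.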

Additional observations from a re-analysis of the deposited data

Results flagged for a closer look

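The difference between the tissues differed between strains, by limma's F test over the 3 strain means, for 16 of the genes named for their difference, spread, strain, day or correlation or as isozymes. The range between the strain means of the liver minus soleus difference (log2) was 8.06 for Serpina3c, 2.464 for Atp2a1, 2.274 for Capn3, 2.074 for Serpine2, 1.98 for Ppp1r3b (a glycogen targeting subunit of protein phosphatase 1), 1.966 for Dbp, 1.883 for Parp3, 1.779 for Pdk4, 1.766 for Per3, 1.754 for Cep85, 1.494 for Aldh16a1, 1.384 for Slc2a4, 1.326 for Sae1, 1.322 for Fam20b, 1.247 for Habp4 and 1.145 for Pygm. Muscle markers took a median of 0.00118% of liver reads in the C57Bl/6J animals, 0.00265% in the DBA/2J animals and 0.00267% in the BALB/cJ animals. The liver means of Atp2a1 in the same strains were −0.56, 1.78 and 1.68 log2 CPM, and the part of the muscle reads in the strain ranges of Atp2a1, Slc2a4 and Pygm was not tested. Other genes named from the lists passed as well, among them Cdkn1a (4.57), Pvalb (3.62), Reln (2.32), Ciart (1.90), Arntl (1.845) and Nr1d1 (1.63). By the same test over the 3 days, the range was 1.558 for Serpine2, 1.333 for Col5a3, 1.243 for Jph1 and 1.032 for Rsrp1.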

How the results depend on the processing

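The pairing of liver and soleus by animal moved no count by over 1.5 times: without the replicate block 2620 genes were higher in liver and 2402 higher in soleus. Limiting the test to the genes above the median level left 1384 higher in liver, 1078 higher in soleus and 3000 within 2-fold. It left 361 that differed between strains and 10 between days, against 1291 and 47 over all genes. The strain and day counts fell by a larger part than the tissue counts, from 2625 in liver and 2409 in soleus. The part of the gene level in this was not tested. Leaving out each animal gave 2608 to 2633 genes higher in liver, 2391 to 2409 higher in soleus, 1240 to 1341 for strain, 31 (without 2RC202) to 72 (without 3RC251) for day and 27 (without 3RC259) to 51 (without 1RC226) for correlation. Other scalings put 43.7% to 45.9% of the called genes on the liver side, against 52.1%. In the 14 animals with hepatocyte markers under 0.01% of soleus reads, chosen after seeing the data, 1 gene passed for day and 0 for correlation with 5 degrees of freedom; 524 genes had a positive and 263 a negative r at an unadjusted p under 0.05. Correlation counts were 78 in HFD animals, 1980 (1728 positive) with strain and day not removed and 15 by Spearman's rho on the residuals; the cause was not tested. No direction reversed among 580 alternatives for single genes, and 567 stayed on their side of the threshold. The 13 others were Per3 in the 26 animals under 0.1% and the day and correlation genes in the 14. Ranges between strains or days have no sign, so they could not reverse. The genes of the largest differences were picked for 1 sign in all animals and lay far past 2-fold, so little could change for them. Depth limits the levels of genes of 1 tissue in the other, where 0 reads stand at −3.71.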
